A study of Homo sapiens with 12 samples.

Results

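Verteporfin (VP), a photosensitizer given in eye disease that also disturbs the pairing of the coactivator YAP1 with TEAD transcription factors, was compared with its solvent DMSO in AGS and MKN45, human gastric adenocarcinoma cell lines grown in RPMI1640. The genes described here are 43 that work in mitosis and in the spindle checkpoint, out of 9696 genes tested. They were listed by symbol, not by a measured value, but earlier results of these data were known when they were chosen. Every probe annotated to those symbols was looked up. Each group, AGS with DMSO, AGS with VP, MKN45 with DMSO and MKN45 with VP, held 3 Illumina HumanHT-12 V4 arrays, 12 in all. The labels give 36 hours of treatment, the study's methods a longer time, and no source used here gives the dose for the arrays. No source says whether replicate arrays stem from separate cultures. The p-values therefore reflect the spread among these arrays, and that spread may be technical.

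In mitosis, cyclin B and the kinase CDK1 drive the cell out of G2, chromosomes condense, and spindle microtubules attach to kinetochores, the protein plates on centromeres. The spindle checkpoint holds the cell until every kinetochore is attached, after which CDC20 activates the anaphase promoting complex, securin and cyclin B are destroyed, separase opens the cohesin rings and the cell divides. Most of these genes are transcribed in G2 and M phase through MuvB complexes, B-MYB and FOXM1, so their RNA is widely read as a sign of how many cells of a culture are dividing.

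The study deposited 2 tables of the same 47323 probes. One held the scanner signals with a detection p-value for each. These were normalized here (background model with an offset of 16, quantile normalization, log2), and a level below is such a log2 signal unless the value table is named. The other, the value table, held the authors' own log2 values, in which the lines may have been normalized apart. A probe entered the tests when each of the 3 arrays of some group gave it a detection p-value under 0.01, and the brightest probe stood for its gene. A change is VP minus DMSO on the log2 scale, given with its standard error (SE) from limma, which was fitted over all 12 arrays and 9696 genes. It was called at a Benjamini-Hochberg adjusted p under 0.05.

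Raw median signals ran from 98.4 to 137 and detected probes from 14523 to 16571 per array. The number of arrays limits the precision. All 7 epithelial markers were detected on all 12 arrays, 4 of 4 endothelial markers on none, 5 of 6 fibroblast markers on none and, of the 4 leukocyte markers with a probe, 3 on none and CD68 on all. The other fibroblast marker, COL1A1, was detected on 2 AGS VP arrays and 1 MKN45 VP array alone. The summed raw signal of the leukocyte markers was higher on every VP array than on any DMSO array of the same line, at 1485 to 1793 against 1963 to 2635 in AGS and 1356 to 2196 against 2529 to 3117 in MKN45. CD68, which macrophages and many cultured cells express, was called higher with VP in AGS (0.63) and not in MKN45 (0.41). Of the 2 erythroid markers with a probe, HBB was detected on the 3 AGS DMSO arrays alone and HBA1 on the 3 MKN45 VP arrays alone, and their summed raw signals ran from 268 to 291 (AGS, DMSO), 239 to 256 (AGS, VP), 211 to 310 (MKN45, DMSO) and 276.5 to 287 (MKN45, VP). Their part in the results was not tested.

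The tables did not describe the same arrays alike, and this touches every result below. Over the tested genes, the change in the signals and that in the value table correlated at -0.0727 in AGS and -0.11 in MKN45, as a description over genes that share their arrays. Of 12 value columns, 1 ranked probes most like the signal column of its own name. In the signals, arrays labelled AGS DMSO and MKN45 DMSO correlated at 0.970 to 0.975, above the 0.922 to 0.928 between AGS DMSO and AGS VP. In the value table the lines correlated at 0.920 and AGS DMSO with AGS VP at 0.985 to 0.988. MET, a receptor gene amplified in MKN45 that was looked at after its values had been seen, read 8.79 in AGS and 9.00 in MKN45 with DMSO in the signals (difference 0.22, limma, adjusted p = 0.146). In the value table, whose lines may be on scales of their own, it read 8.87 and 12.59. FAT1, the cadherin that the study follows, changed with VP by 0.62 in AGS and 0.29 in MKN45 in the signals (limma, adjusted p = 0.000921 and 0.0734) and by -2.17 and -1.50 in the value table. The called change in the AGS signals runs opposite to the direction that the study describes for this gene, which it also followed by western blot and qRT-PCR. The MKN45 change in the signals was not called. Both changes in the value table run in the direction that the study describes. Past line 21197 of the value table, 26126 probe names stood 1 line away from their values when set against the signals, so the names were moved by 1 line there. CDH1 read 7.12 in AGS and 7.95 in MKN45 with DMSO in the signals, and 7.30 and 11.13 in the value table. There the all-gene medians of the DMSO arrays were 8.23 to 8.24 in AGS and 8.11 to 8.12 in MKN45. Which table holds the labelled arrays was not settled, so members are described from both. Throughout, AGS and MKN45 name the columns as they are labelled. CDC25C, DLGAP5, HMMR and KIF11, 4 members in all, are read by another probe in the value table than in the signals. More than 1 probe was detected for 18 members, and 0 of these had probes called in opposite directions within a table and line. In the signals all their detected probes had the same sign for 14 of them in AGS and 15 in MKN45.

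**Figure D1:**
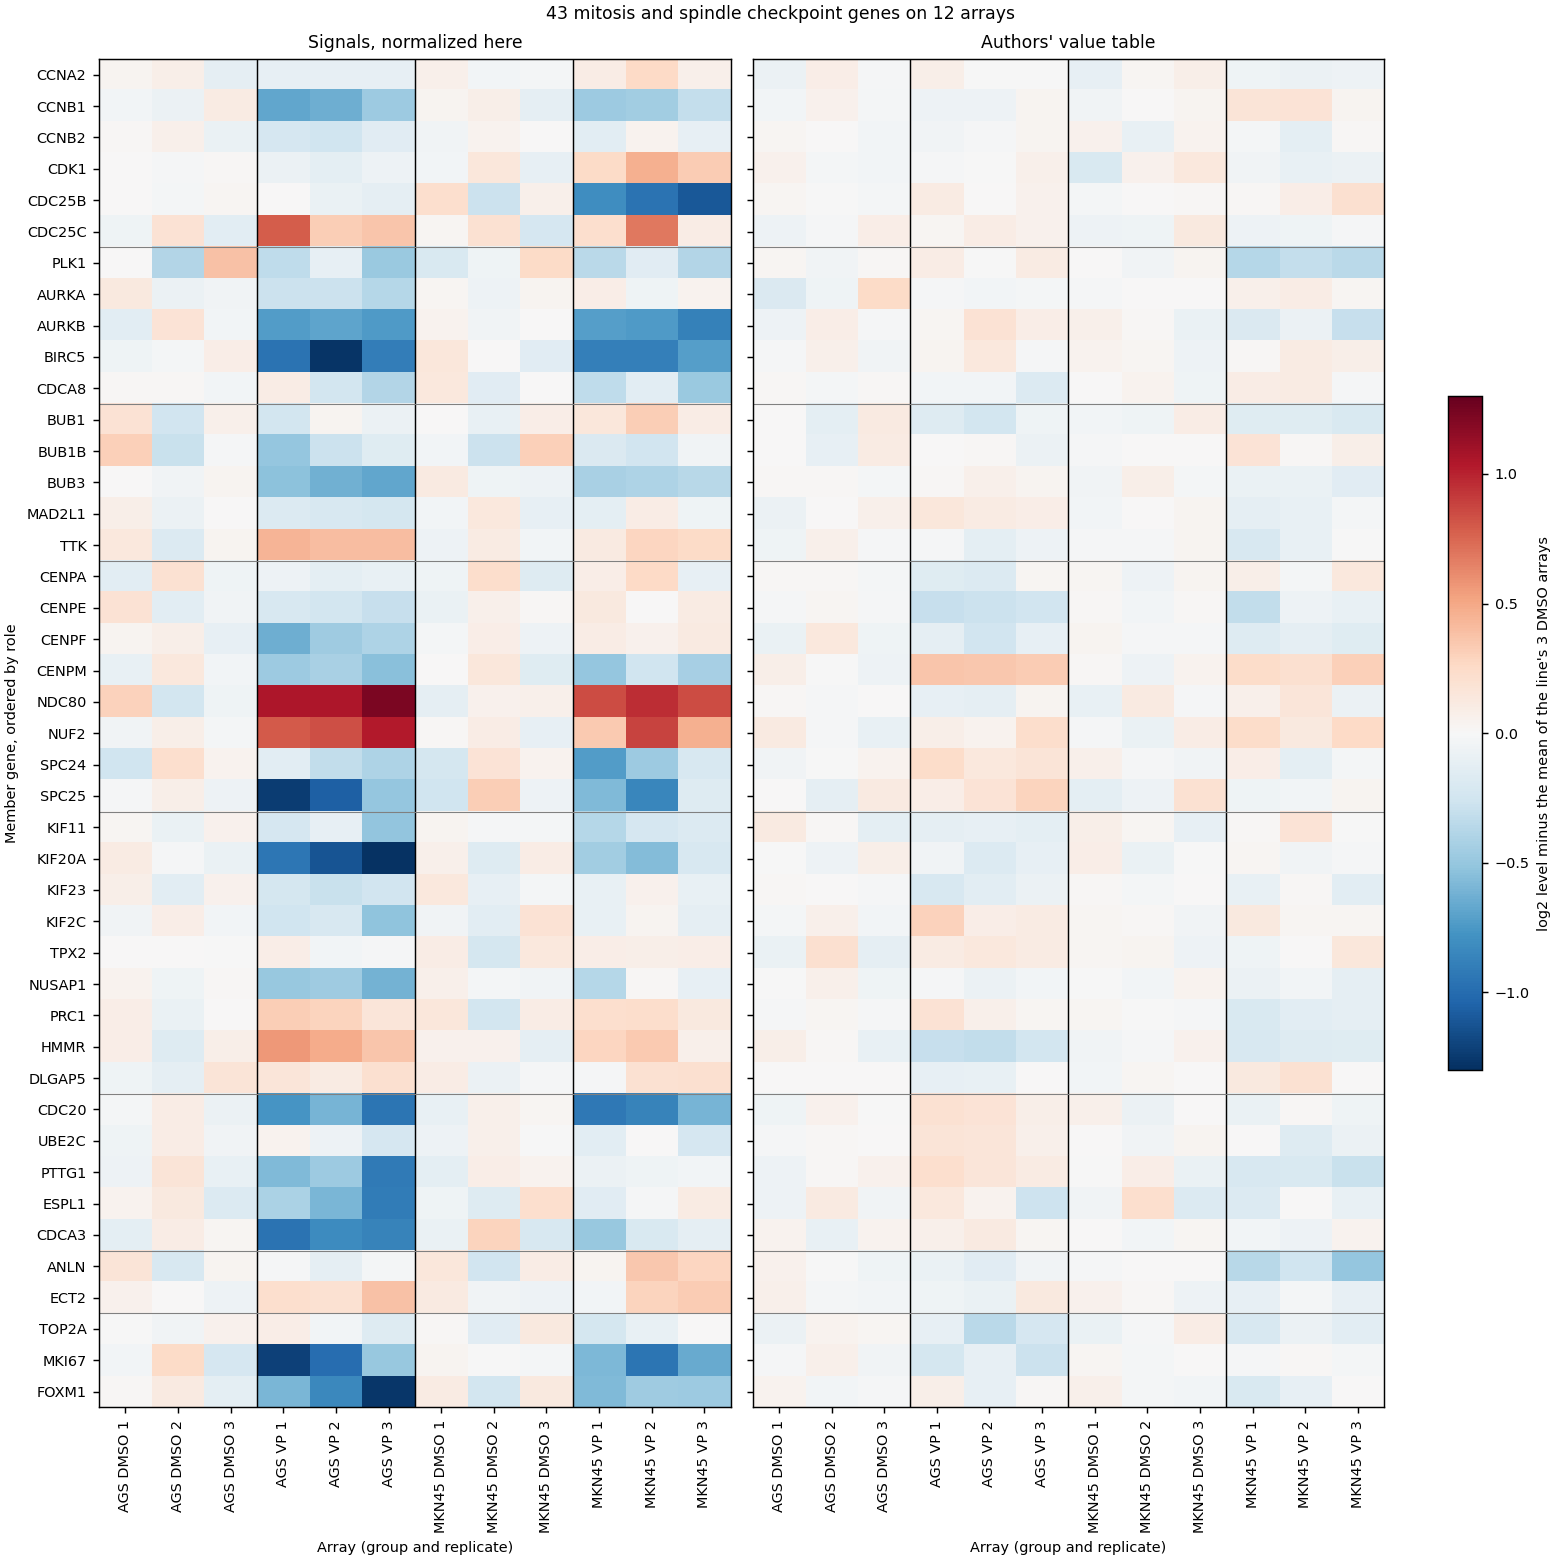
Level of the 43 members on each of the 12 arrays, as the log2 difference from the mean of the line's 3 DMSO arrays, in the signals (left) and the value table (right), red for higher and blue for lower. In the signals NDC80 and NUF2 were red on all 6 VP arrays, and AURKB, BIRC5, CDC20 and FOXM1 blue on all 6. The value table is pale throughout.

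The promoters of these genes are known for 2 short elements, the CHR, bound by MuvB complexes, and the CCAAT box, bound by NF-Y. RefSeq windows from 250 bases before to 50 after the start of a gene (build GRCh38.p14) were searched on both strands for the letters TTTGAA (CHR) and CCAAT. Of the 43 members, 35 matched a window by symbol, and AURKA, BIRC5, BUB3, TTK, CENPM, TPX2, UBE2C and FOXM1 did not. The CHR letters stood in 24 of the 35 windows (68.6%) against 15.4% of all 27305 windows, and the CCAAT letters in 27 (77.1%) against 35.7%. Both stood in 20 of 35 windows (57.1%) against 6.08% of all. Among 35 windows of DNA replication genes, whose expression peaks earlier in the cycle, 1 held the CHR letters (2.86%) and 20 the CCAAT letters (57.1%). A match is a description of these letters and not a binding site. Of the members called in neither line of the signals, 14 had a window and 11 of these held the CHR letters (78.6%). Shown are NDC80 and NUF2, the members that rose in both lines of the signals, and CDC20, SPC25 and MKI67, those that fell in both, have a window and hold the CHR letters. Matches to either element, on either strand, are in capitals, and in MKI67 a match to each shares a base.
NDC80 (chr18:2571307-2571606, plus strand): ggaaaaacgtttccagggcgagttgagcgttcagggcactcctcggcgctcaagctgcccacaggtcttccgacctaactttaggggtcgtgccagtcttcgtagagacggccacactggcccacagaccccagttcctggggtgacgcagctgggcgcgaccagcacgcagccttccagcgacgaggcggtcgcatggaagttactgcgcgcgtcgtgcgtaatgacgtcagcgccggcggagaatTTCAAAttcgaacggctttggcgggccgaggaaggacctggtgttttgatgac
NUF2 (chr1:163321704-163322003, plus strand): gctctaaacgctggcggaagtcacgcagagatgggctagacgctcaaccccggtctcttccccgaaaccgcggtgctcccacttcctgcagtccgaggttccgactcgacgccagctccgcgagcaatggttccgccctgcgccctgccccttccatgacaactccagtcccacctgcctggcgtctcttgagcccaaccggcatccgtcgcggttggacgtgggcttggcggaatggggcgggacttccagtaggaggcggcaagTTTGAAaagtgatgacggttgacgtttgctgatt
CDC20 (chr1:43358731-43359030, plus strand): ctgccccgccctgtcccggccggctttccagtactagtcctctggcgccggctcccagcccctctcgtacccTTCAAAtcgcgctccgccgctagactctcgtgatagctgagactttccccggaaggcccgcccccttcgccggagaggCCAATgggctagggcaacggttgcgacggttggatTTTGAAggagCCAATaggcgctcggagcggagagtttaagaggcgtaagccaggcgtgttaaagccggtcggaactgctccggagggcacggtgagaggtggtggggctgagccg
SPC25 (chr2:168890381-168890680, minus strand): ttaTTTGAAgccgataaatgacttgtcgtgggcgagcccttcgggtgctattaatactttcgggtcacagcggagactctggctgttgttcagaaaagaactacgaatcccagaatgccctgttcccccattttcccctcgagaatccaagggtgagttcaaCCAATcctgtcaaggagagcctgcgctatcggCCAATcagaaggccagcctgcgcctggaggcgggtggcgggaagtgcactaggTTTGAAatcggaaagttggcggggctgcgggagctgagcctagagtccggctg
MKI67 (chr10:128126374-128126673, minus strand): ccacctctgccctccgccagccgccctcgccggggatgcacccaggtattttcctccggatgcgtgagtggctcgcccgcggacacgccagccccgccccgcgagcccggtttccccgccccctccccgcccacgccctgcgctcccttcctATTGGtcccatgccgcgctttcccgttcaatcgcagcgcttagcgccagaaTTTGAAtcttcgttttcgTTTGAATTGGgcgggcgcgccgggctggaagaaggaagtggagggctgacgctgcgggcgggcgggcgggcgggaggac
The windows of NDC80 and NUF2 held CHR letters and no CCAAT letters, while those of CDC20, SPC25 and MKI67, shown because they hold CHR letters, held both. Of the 6 windows of members that fell in both lines, 3 held the CHR letters and 6 the CCAAT letters, and CCNB1, AURKB and KIF20A held the CCAAT letters alone. MKI67 is among the 6, though its calls support nothing, as described below.

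In the signals, more of these genes were lower with VP than higher in each line. In AGS, 19 of the 43 members fell and 5 rose, 55.8% together, against 56.4% of all genes. The falls (44.2% of members) stood against 30.0% of all genes and the rises (11.6%) against 26.3%. In MKN45, 12 fell and 3 rose, 34.9% of members against 46.1% of all genes, with falls at 27.9% against 23.1% and rises at 6.98% against 22.9%. So the share that changed was near that of any gene in AGS and below it in MKN45. The falls of both lines include MKI67, which entered the tests only through MKN45 DMSO, the group in which it was highest. The median change of the members was -0.26 in AGS and -0.06 in MKN45, where that of all genes was -0.03 and -0.02. An array reads a whole culture, so fewer cells with a transcript and less of it per cell cannot be told apart.

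CCNB1, AURKB, BIRC5, BUB3, CENPM, SPC25, KIF20A, CDC20, MKI67 and FOXM1, 10 of 43 members (23.3%), fell in both lines, as did 17.5% of all genes. The place of MKI67 among them rests on the detection filter and supports nothing. NDC80 and NUF2, 2 members (4.65%), rose in both, as did 16.9% of all genes. The VP arrays lay wholly below the DMSO arrays for 23 members in AGS and 11 in MKN45 (32.8% and 27.4% of all genes) and wholly above for 7 and 6 (28.7% and 27.2%). The remaining uncalled members, 16 in all, passed in neither line: CCNA2, CCNB2, PLK1, CDCA8, BUB1, BUB1B, MAD2L1, CENPA, CENPE, TPX2, PRC1, DLGAP5, UBE2C, ANLN, ECT2 and TOP2A.

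The balance of rises and falls depended on how the arrays were scaled. When arrays were aligned on their medians alone (the median shift) and not quantile normalized, the median change of all genes moved from -0.03 to 0.15 in AGS and from -0.02 to 0.27 in MKN45. The share of rises among all calls moved from 46.7% to 70.3% in AGS and from 49.8% to 84.9% in MKN45. Then AGS had 6 rises and 10 falls among the members, and MKN45 had 12 rises and 5 falls, where 43.6% and 40.9% of all genes were called. Relative to the median of all genes, the members' median stood at -0.23 under quantile normalization and -0.21 under the shift in AGS, and at -0.04 under either in MKN45. Of the calls above, 15 of 24 in AGS and 8 of 15 in MKN45 were kept under the shift, and none turned direction. Lost in AGS were CCNB1, AURKA, CENPF, CENPM, KIF11, KIF23, KIF2C, NUSAP1 and ESPL1, and in MKN45 CCNB1, BUB3, CENPM, SPC24, SPC25, KIF20A and FOXM1. Gained were rises alone, of ECT2 in AGS and of CCNA2, CDC25C, BUB1, TTK, PRC1, HMMR, DLGAP5, ANLN and ECT2 in MKN45.

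In the value table fewer of the members were called. There AGS had 3 rises and 4 falls, 16.3% of members against 30.2% of all genes, and MKN45 had 2 rises and 5 falls, 16.3% against 21.7%. Without AGS VP replicate 3 the AGS count was 12 (30.5% of all genes). The MKN45 count was 3 without MKN45 DMSO replicate 2 (17.1%) and 4 without MKN45 VP replicate 1 or 3 (16.6% and 16.7%). Rises and falls stood against 16.1% and 14.1% of all genes in AGS and 11.0% and 10.7% in MKN45. The median change of the members was 0.00 in AGS and -0.05 in MKN45, beside 0.02 and 0.01 for all genes. VP arrays lay wholly above DMSO arrays for 8 members in AGS and 5 in MKN45 (22.2% and 20.4% of all genes) and wholly below for 7 and 9 (18.2% and 16.7%). CENPM alone of the members rose in both lines (4.10% of all genes did) and HMMR alone fell in both (6.82%). Called in both tables in the same direction were MKI67 in AGS (fell), AURKB in MKN45 (fell) and NUF2 in MKN45 (rose). Of these MKI67 passed the detection filter through MKN45 DMSO alone. CENPM in both lines, and KIF2C and HMMR in AGS, were called in opposite directions. Of these HMMR is read by different probes. The probe that stands for it in the signals changed by 0.47 there and by -0.30 in the value table (limma over all detected probes, adjusted p = 0.00365 and 0.00156). CDC25C is also read by different probes. Its probe of the signals changed in AGS by 0.49 there and by 0.20 in the value table (adjusted p = 0.0319 and 0.0172).

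Of the 6 cyclins, CDK1 and CDC25 phosphatases, AGS had 1 rise and 1 fall and MKN45 had 1 rise and 2 falls. For this and the groups that follow, rises and falls made up 26.3% and 30.0% of all genes in AGS. In MKN45 they made up 22.9% and 23.1%. CCNB1 encodes cyclin B1, the partner of CDK1 at mitotic entry. Its levels were 9.12, 9.08 and 9.26 with DMSO and 8.48, 8.52 and 8.68 with VP in AGS, a change of -0.59 ± 0.0995 (SE, n = 3 arrays a group, limma, adjusted p = 0.000188). In MKN45 they were 9.73, 9.77 and 9.58 with DMSO and 9.22, 9.24 and 9.38 with VP, a change of -0.41 ± 0.0995 (adjusted p = 0.00405). All VP arrays were below all DMSO arrays in both lines, and MKN45 stood above AGS within each treatment. CDK1, the kinase itself, read 10.68, 10.66 and 10.69 with DMSO and 10.60, 10.55 and 10.61 with VP in AGS (-0.09 ± 0.0963, adjusted p = 0.45), with arrays that did not overlap but lay close. In MKN45 it read 10.69, 10.88 and 10.62 with DMSO and 10.98, 11.19 and 11.06 with VP and rose by 0.35 ± 0.0963 (adjusted p = 0.00972), a call that was lost without MKN45 VP replicate 2 (adjusted p = 0.051). So cyclin B1 and its kinase went opposite ways in MKN45 under quantile normalization, a difference between genes that was not tested. With the median shift CCNB1 stood at -0.08 there and CDK1 at 0.63 (limma, adjusted p = 0.788 and 0.00563). The other CDK1 probe changed by 0.33 in MKN45 (limma over all detected probes, adjusted p = 0.0772). In the value table CCNB1 changed by 0.12 and CDK1 by -0.08 there, neither called.

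CDC25B, a phosphatase that activates CDK1 at the centrosome, gave the largest fall of the members in MKN45. Its levels there were 10.99, 10.49 and 10.84 with DMSO and 9.97, 9.81 and 9.67 with VP, a change of -0.96 ± 0.124 (limma, adjusted p = 3.93e-05), with the VP arrays far below. In AGS it read 10.74, 10.71 and 10.77 with DMSO and 10.74, 10.65 and 10.62 with VP, with overlapping arrays and a change of -0.07 ± 0.124 (adjusted p = 0.652). CDC25C, which removes the inhibitory phosphates from CDK1 at entry into mitosis, read 6.68, 6.92 and 6.60 with DMSO and 7.52, 7.05 and 7.09 with VP in AGS and rose by 0.49 ± 0.171 (adjusted p = 0.026). That call was lost without AGS DMSO replicate 1, AGS DMSO replicate 3 or AGS VP replicate 1 (adjusted p = 0.0666 to 0.128), and the other 2 detected CDC25C probes changed by -0.04 and -0.10 in AGS. Its levels in MKN45 were 7.07, 7.24 and 6.83 with DMSO and 7.26, 7.73 and 7.14 with VP (0.33 ± 0.171, adjusted p = 0.13), and those probes changed by 0.59 and 0.69 there (limma over all detected probes, adjusted p = 0.000867 and 0.0032), so the probes of CDC25C gave unlike values in both lines. The cyclins CCNA2 and CCNB2 were called in neither line, with changes of -0.11 and -0.21 in AGS and 0.14 and -0.07 in MKN45. The value table, by its own brightest probes, put all 6 genes of this group between -0.02 and 0.06 in AGS and between -0.08 and 0.12 in MKN45, none called. The CDC25C probe of the signals changed there by 0.20 in AGS and 0.06 in MKN45 (limma over all detected probes, adjusted p = 0.0172 and 0.55).

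Of the 5 mitotic kinases and passenger proteins, 3 fell in AGS and 2 in MKN45, and 0 rose. AURKB, BIRC5 (survivin) and CDCA8 (borealin) belong to the chromosomal passenger complex, which corrects wrong attachments at centromeres and then guides cytokinesis. BIRC5 read 8.29, 8.32 and 8.44 with DMSO and 7.39, 7.08 and 7.45 with VP in AGS and fell by 1.05 ± 0.117 (SE, limma, adjusted p = 6.03e-06). In MKN45 it read 8.93, 8.79 and 8.64 with DMSO and 7.90, 7.90 and 8.07 with VP (-0.83 ± 0.117, adjusted p = 7.77e-05). VP arrays were below DMSO arrays in both lines. The other BIRC5 probe was dim, at mean levels between 4.97 and 6.05 in the 4 groups, and its change is not used. AURKB, the kinase of the complex, read 9.89, 10.21 and 9.99 with DMSO and 9.30, 9.34 and 9.29 with VP in AGS (-0.72 ± 0.0996, adjusted p = 3.86e-05). Its levels in MKN45 were 10.29, 10.19 and 10.24 with DMSO and 9.52, 9.50 and 9.36 with VP (-0.78 ± 0.0996, adjusted p = 3.43e-05), again with no overlap. CDCA8 changed by -0.18 in AGS and -0.32 in MKN45 and was not called.

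AURKA, the kinase of spindle poles, read 10.69, 10.49 and 10.52 with DMSO and 10.29, 10.29 and 10.20 with VP in AGS (-0.31 ± 0.0927, limma, adjusted p = 0.0118), a call lost without AGS DMSO replicate 1 (adjusted p = 0.0569). In MKN45 it read 10.89, 10.79 and 10.90 with DMSO and 10.95, 10.80 and 10.91 with VP, with overlapping arrays (0.03 ± 0.0927, adjusted p = 0.813). PLK1, which works from mitotic entry to cytokinesis, was dim and scattered. It read 6.33, 5.94 and 6.70 with DMSO and 5.99, 6.22 and 5.84 with VP in AGS (-0.30 ± 0.176, adjusted p = 0.156) and 6.39, 6.53 and 6.84 with DMSO and 6.24, 6.44 and 6.21 with VP in MKN45 (-0.29 ± 0.176, adjusted p = 0.194), overlapping in both lines. The value table put PLK1 apart instead, with levels of 7.88, 7.82 and 7.91 with DMSO and 7.50, 7.56 and 7.52 with VP in MKN45, a fall of 0.35 ± 0.0558 (SE, adjusted p = 4.27e-05), and 7.47, 7.39 and 7.46 with DMSO and 7.54, 7.43 and 7.55 with VP in AGS (0.07 ± 0.0558, adjusted p = 0.363). Its MKN45 value was 0.06 with the probe names as deposited. AURKB changed by 0.10 ± 0.0656 in AGS and -0.19 ± 0.0656 in MKN45 there. The MKN45 value was called (adjusted p = 0.0347) but not without MKN45 DMSO replicate 1 or 2 or MKN45 VP replicate 1 or 3 (adjusted p = 0.0841 to 0.202). BIRC5 changed by 0.05 and 0.07 in that table, AURKA by -0.03 and 0.06, and CDCA8 by -0.08 and 0.06.

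Among the 5 spindle checkpoint members BUB3 fell in both lines, TTK rose in AGS and the rest were not called. BUB1B, which encodes BUBR1, a part of the complex that holds back CDC20, read 7.83, 7.23 and 7.50 with DMSO and 7.02, 7.24 and 7.36 with VP in AGS (-0.31 ± 0.167, limma, adjusted p = 0.127) and 7.67, 7.43 and 8.02 with DMSO and 7.52, 7.46 and 7.66 with VP in MKN45 (-0.16 ± 0.167, adjusted p = 0.453). Its groups overlapped in both lines. BUB3, which brings BUB1 and BUBR1 to kinetochores, had a change of -0.61 ± 0.0902 in AGS (adjusted p = 6.88e-05), and in MKN45 of -0.40 ± 0.0902 (adjusted p = 0.00271). Another BUB3 probe changed by -1.72 and -0.89 (limma over all detected probes, adjusted p = 9.025e-07 and 0.000366). A further probe changed by -0.15 and -0.10 and was not called. TTK, the kinase MPS1 that starts the checkpoint signal, had a change of 0.41 ± 0.103 in AGS (adjusted p = 0.00382), and in MKN45 of 0.22 ± 0.103 (adjusted p = 0.101). BUB1 changed by -0.09 and 0.19, and MAD2L1, the MAD2 protein that binds CDC20, by -0.20 and -0.02. A dimmer MAD2L1 probe changed by -0.55 in AGS and 0.10 in MKN45 (limma over all detected probes, adjusted p = 0.00382 and 0.585). The value table put the 5 between -0.16 and 0.12 in AGS and between -0.17 and 0.10 in MKN45, none called.

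Of the 8 centromere and kinetochore members, 2 rose and 3 fell in each line, and the widest spread lay inside 1 complex. NDC80, NUF2, SPC24 and SPC25 together form the NDC80 complex, the rod that ties the kinetochore to microtubules, with NDC80 and NUF2 at the microtubule end and SPC24 and SPC25 at the inner end. NDC80 read 8.65, 8.11 and 8.29 with DMSO and 9.40, 9.40 and 9.57 with VP in AGS (1.11 ± 0.126, limma, adjusted p = 6.71e-06) and 8.46, 8.63 and 8.64 with DMSO and 9.42, 9.54 and 9.42 with VP in MKN45 (0.88 ± 0.126, adjusted p = 8.67e-05). The lowest VP array stood well above the highest DMSO array in both lines, and these were the largest rises of any member. NUF2 read 7.59, 7.72 and 7.61 with DMSO and 8.44, 8.48 and 8.67 with VP in AGS (0.89 ± 0.131, adjusted p = 6.24e-05) and 7.90, 7.98 and 7.78 with DMSO and 8.23, 8.77 and 8.35 with VP in MKN45 (0.56 ± 0.131, adjusted p = 0.00333), also with no overlap. Its other detected probe was dim, at mean levels between 5.43 and 5.94 in the 4 groups, and its change is not used.

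SPC25 went the other way, with 7.35, 7.44 and 7.30 with DMSO and 6.13, 6.30 and 6.86 with VP in AGS and a change of -0.94 ± 0.204 (limma, adjusted p = 0.00147). In MKN45 it read 7.32, 7.90 and 7.51 with DMSO and 7.00, 6.73 and 7.41 with VP (-0.53 ± 0.204, adjusted p = 0.0482). The groups overlapped there, and the call was lost without MKN45 DMSO replicate 2 or 3 or MKN45 VP replicate 1 or 2 (adjusted p = 0.0776 to 0.202). SPC24 read 7.99, 8.47 and 8.30 with DMSO and 8.12, 7.93 and 7.85 with VP in AGS (-0.29 ± 0.156, adjusted p = 0.136) and 8.10, 8.51 and 8.38 with DMSO and 7.60, 7.86 and 8.12 with VP in MKN45 (-0.47 ± 0.156, adjusted p = 0.025). Its groups overlapped in both lines, and the MKN45 call was lost without MKN45 DMSO replicate 2 or 3 or MKN45 VP replicate 1 or 2 (adjusted p = 0.0615 to 0.118). Thus the microtubule-end subunits rose in both lines while SPC25 fell in both and SPC24 in MKN45. The difference between the subunits was not tested.

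Of the other centromere members, CENPM, a constitutive centromere protein, read 8.86, 9.10 and 8.92 with DMSO and 8.49, 8.54 and 8.42 with VP in AGS (-0.48 ± 0.109, limma, adjusted p = 0.00211) and changed by -0.40 ± 0.109 in MKN45 (adjusted p = 0.00893). CENPF, a large protein of the outer kinetochore, had a change of -0.50 ± 0.0958 in AGS (adjusted p = 0.000542), and in MKN45 of 0.09 ± 0.0958 (adjusted p = 0.465). CENPA, the histone H3 variant that marks centromeres, changed by -0.10 and 0.08, and CENPE, a kinetochore kinesin, by -0.24 and 0.08, none called.

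The value table gave another picture of these genes. CENPM read 8.77, 8.68 and 8.62 with DMSO and 9.05, 9.04 and 9.02 with VP in AGS, a rise of 0.35 ± 0.0573 (SE, limma, adjusted p = 4.18e-05), and 9.01, 8.93 and 9.04 with DMSO and 9.23, 9.20 and 9.30 with VP in MKN45 (0.25 ± 0.0573, adjusted p = 0.00218), with no overlap in either line. NDC80 changed by -0.06 and 0.05 there and SPC25 by 0.18 and -0.02, none called. NUF2 read 8.19, 8.12 and 8.30 with DMSO and 8.44, 8.33 and 8.46 with VP in MKN45 (0.21 ± 0.0675, adjusted p = 0.0296), a call lost without MKN45 DMSO replicate 1 or 2 or MKN45 VP replicate 1 or 3 (adjusted p = 0.0758 to 0.151). With the probe names as deposited its MKN45 value was -0.09. It changed by 0.12 in AGS, where it was not called. SPC24 read 9.31, 9.35 and 9.40 with DMSO and 9.59, 9.49 and 9.52 with VP in AGS (0.19 ± 0.0606, adjusted p = 0.0208), a call lost without AGS DMSO replicate 1 or AGS VP replicate 1 (adjusted p = 0.0781 and 0.0931) or with the probe names as deposited (adjusted p = 0.0834). CENPE read 9.88, 9.92 and 9.88 with DMSO and 9.59, 9.61 and 9.64 with VP in AGS (-0.28 ± 0.0618, adjusted p = 0.00125), with every VP array below every DMSO array. So no subunit of the NDC80 complex was called in the same direction in both tables except NUF2 in MKN45.

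**Figure D2:**
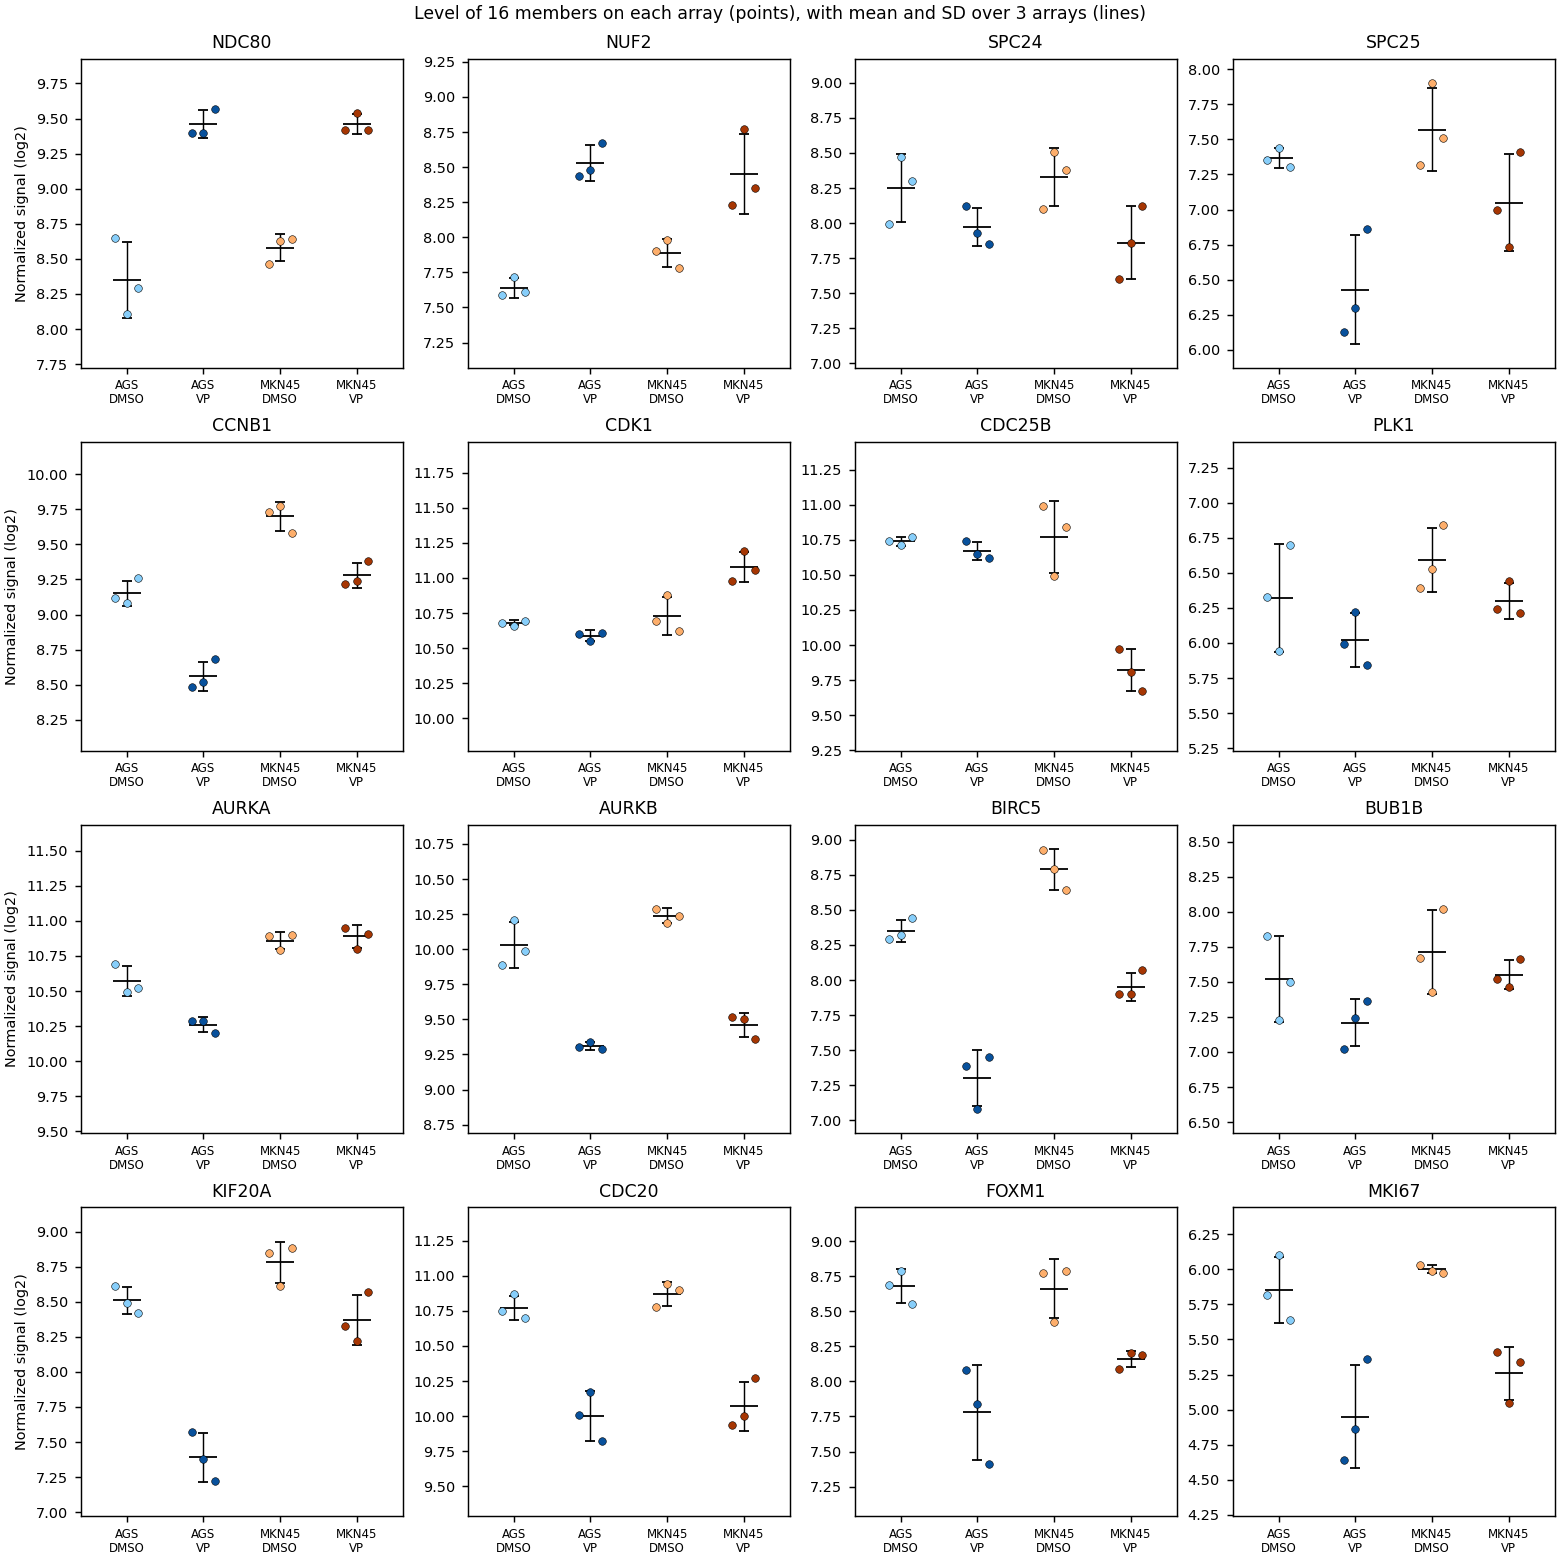
Normalized log2 signal of 16 members on each array (points), with the mean and SD of the 3 arrays of a group (lines); every panel spans the same log2 range. NDC80 and NUF2 stood higher with VP in both lines, whereas BIRC5, AURKB, CDC20 and KIF20A stood lower, and CDC25B was lower with VP in MKN45 alone.

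Of the 9 spindle motors and microtubule proteins, 1 rose and 5 fell in AGS and 1 fell in MKN45. KIF20A, a kinesin of the central spindle needed in cytokinesis, gave the largest fall of any member in AGS when each was read by its brightest probe. It read 8.61, 8.49 and 8.42 with DMSO and 7.57, 7.38 and 7.22 with VP there (-1.12 ± 0.123, limma, adjusted p = 5.29e-06). Its levels in MKN45 were 8.85, 8.61 and 8.88 with DMSO and 8.33, 8.22 and 8.57 with VP, a smaller change of -0.40 ± 0.123 (adjusted p = 0.0157) that was not called without MKN45 DMSO replicate 1 or 3 or MKN45 VP replicate 2 (adjusted p = 0.0521 to 0.0762). The VP arrays were below the DMSO arrays in both lines. NUSAP1, which bundles spindle microtubules, had a change of -0.53 ± 0.106 in AGS (adjusted p = 0.000751), and in MKN45 of -0.15 ± 0.106 (adjusted p = 0.258).

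HMMR, a microtubule and hyaluronan binding protein, read 8.74, 8.49 and 8.73 with DMSO and 9.22, 9.14 and 9.01 with VP in AGS and changed by 0.47 ± 0.11 (limma, adjusted p = 0.00259), higher on every VP array, and by 0.23 ± 0.11 in MKN45 (adjusted p = 0.101). KIF11, the motor that separates the spindle poles, changed by -0.28 in AGS (adjusted p = 0.0443), lost without AGS DMSO replicate 1 or 3 or AGS VP replicate 1 or 3 (adjusted p = 0.0584 to 0.199). KIF23, a central spindle motor, changed by -0.26 (adjusted p = 0.0384), lost without any 1 of AGS DMSO replicates 1 and 3 and AGS VP replicates 1, 2 and 3 (adjusted p = 0.0671 to 0.119). KIF2C, which takes microtubules apart at centromeres, read 8.02, 8.15 and 8.03 with DMSO and 7.81, 7.86 and 7.54 with VP in AGS (-0.33, adjusted p = 0.0254), lost without AGS DMSO replicate 2 or AGS VP replicate 3 (adjusted p = 0.0777 and 0.113). These kinesins were not called in MKN45, at -0.26, -0.05 and -0.06. TPX2, which seeds spindle microtubules, changed by 0.01 and 0.08, PRC1, which bundles the central spindle, by 0.25 and 0.19, and DLGAP5, a stabilizer of spindle fibres, by 0.16 and 0.13, none called.

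KIF20A in the value table changed by -0.11 in AGS and -0.01 in MKN45, and was not called. HMMR read 9.59, 9.53 and 9.41 with DMSO and 9.21, 9.19 and 9.27 with VP in AGS, where it fell (-0.29 ± 0.0581, limma, adjusted p = 0.000478), and 9.52, 9.55 and 9.62 with DMSO and 9.36, 9.40 and 9.41 with VP in MKN45 (-0.18 ± 0.0581, adjusted p = 0.0308). All VP arrays were below all DMSO arrays in both lines. This probe changed by 0.13 and 0.32 in the signals (limma over all detected probes, adjusted p = 0.516 and 0.11). The MKN45 call was lost without MKN45 DMSO replicate 2 or 3 or any 1 of the 3 MKN45 VP arrays (adjusted p = 0.0585 to 0.13). KIF2C read 8.64, 8.74 and 8.63 with DMSO and 8.97, 8.76 and 8.78 with VP in AGS and rose (0.17 ± 0.0623, adjusted p = 0.0424), a call lost without AGS DMSO replicate 1 or 3 or AGS VP replicate 1 (adjusted p = 0.121 to 0.271). Over the 9 genes of this group the value table ran from -0.29 to 0.17 in AGS and from -0.18 to 0.11 in MKN45.

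Of the 5 members that serve the anaphase promoting complex and separase, 4 fell in AGS and 1 in MKN45. CDC20, the activator of the complex and the target of the checkpoint, fell in both lines. It read 10.75, 10.87 and 10.70 with DMSO and 10.01, 10.17 and 9.82 with VP in AGS (-0.77 ± 0.117, limma, adjusted p = 8.26e-05). In MKN45 it read 10.78, 10.94 and 10.90 with DMSO and 9.94, 10.00 and 10.27 with VP (-0.80 ± 0.117, adjusted p = 0.000102). No VP array reached the lowest DMSO array in either line. PTTG1 (securin), the inhibitor of separase that the complex destroys, read 11.08, 11.32 and 11.05 with DMSO and 10.58, 10.68 and 10.23 with VP in AGS (-0.65 ± 0.123, adjusted p = 0.000498) but 10.94, 11.15 and 11.11 with DMSO and 10.99, 11.01 and 11.03 with VP in MKN45 (-0.05 ± 0.123, adjusted p = 0.745), where the groups overlapped. ESPL1, separase itself, had a change of -0.64 ± 0.143 in AGS (adjusted p = 0.00176), and in MKN45 of -0.02 ± 0.143 (adjusted p = 0.918). CDCA3, which helps the cell into mitosis, had a change of -0.88 ± 0.136 in AGS (adjusted p = 9.57e-05), and in MKN45 of -0.27 ± 0.136 (adjusted p = 0.119). UBE2C, the ubiquitin-conjugating enzyme of the complex, changed by -0.08 and -0.11 by its brightest probe and was not called. Its other probe changed by -0.96 and -0.31 (limma over all detected probes, adjusted p = 1.94e-05 and 0.0475). That probe was dim, at mean levels between 5.76 and 6.71 in the 4 groups. The difference between the lines passed its test for PTTG1, though not with the median shift, and did not for ESPL1 (adjusted p = 0.0642) or CDCA3 (adjusted p = 0.0561).

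CDC20 in the value table changed by 0.15 in AGS and -0.05 in MKN45, CDCA3 by 0.08 and -0.01, ESPL1 by -0.03 and -0.09 and UBE2C by 0.13 and -0.08, none called. PTTG1 read 11.65, 11.74 and 11.57 with DMSO and 11.45, 11.46 and 11.36 with VP in MKN45 (-0.23 ± 0.0597, limma, adjusted p = 0.00622), with VP arrays below DMSO arrays, a call lost without MKN45 DMSO replicate 2 (adjusted p = 0.05002). In AGS it changed by 0.16 (adjusted p = 0.0505).

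The cytokinesis members ANLN, anillin of the contractile ring, and ECT2, which activates RhoA at the division plane, were called in neither line of the signals. ANLN changed by -0.05 and 0.22, and ECT2 by 0.27 and 0.20. With the median shift ECT2 was called higher in both lines (0.47 and 0.54, limma, adjusted p = 0.0368 and 0.0173) and ANLN in MKN45 (0.57, adjusted p = 0.0111). ANLN in the value table gave the largest fall of any member in MKN45, with levels of 9.83, 9.86 and 9.86 with DMSO and 9.49, 9.59 and 9.35 with VP (-0.37 ± 0.0613, limma, adjusted p = 6.39e-05), and its signals there were 9.71, 9.31 and 9.66 with DMSO and 9.60, 9.91 and 9.84 with VP. The value table had its VP arrays wholly below its DMSO arrays, while the signals overlapped. ECT2 changed by -0.01 and -0.08 in the value table.

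Of the 3 members for chromosome structure and transcription, FOXM1 and MKI67 were called in both lines. FOXM1, the transcription factor that acts on many of the genes above in G2, fell in both lines of the signals. It read 8.69, 8.79 and 8.55 with DMSO and 8.08, 7.84 and 7.41 with VP in AGS (-0.90 ± 0.153, limma, adjusted p = 0.000223) and 8.77, 8.42 and 8.79 with DMSO and 8.09, 8.20 and 8.19 with VP in MKN45 (-0.50 ± 0.153, adjusted p = 0.0161). VP arrays stayed below DMSO arrays, but the MKN45 call was lost without MKN45 DMSO replicate 1 or 3 or MKN45 VP replicate 1 (adjusted p = 0.0524 to 0.0635). A second FOXM1 probe changed by -0.69 and -0.62. TOP2A, the topoisomerase that untangles chromosomes, overlapped between the groups and was not called, with 10.88, 10.84 and 10.95 with DMSO and 10.98, 10.85 and 10.72 with VP in AGS (-0.04 ± 0.107, adjusted p = 0.76) and 10.96, 10.79 and 11.07 with DMSO and 10.71, 10.84 and 10.94 with VP in MKN45 (-0.11 ± 0.107, adjusted p = 0.405).

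MKI67 encodes the proliferation marker Ki-67, which coats mitotic chromosomes. Its single probe was dim, detected on 2 of 3 AGS DMSO arrays, 3 of 3 MKN45 DMSO arrays and no VP array of either line. It thus entered the tests only through MKN45 DMSO, the group in which it was highest, so its calls and its place among the falls support nothing. It read 5.82, 6.10 and 5.64 with DMSO and 4.64, 4.86 and 5.36 with VP in AGS and 6.03, 5.99 and 5.97 with DMSO and 5.41, 5.05 and 5.34 with VP in MKN45. As its VP levels were not well above background, only a bound can be given, of 1.16-fold lower with VP in AGS and 1.3-fold lower in MKN45. These bounds were not tested. The AGS bound is uncertain, since not every AGS DMSO array was itself above background. The bound sets the DMSO mean against, per VP array, the lowest level of any probe above background, or MKI67's own where that was higher. MKI67 in the value table changed by -0.21 ± 0.0574 in AGS (adjusted p = 0.00734), while in MKN45 it changed by -0.01 ± 0.0574 (adjusted p = 0.936). With the probe names as deposited its AGS value was 0.13. There TOP2A read 11.65, 11.78 and 11.76 with DMSO and 11.62, 11.38 and 11.51 with VP in AGS (-0.23 ± 0.0657, adjusted p = 0.0104), a call lost without AGS VP replicate 2 (adjusted p = 0.0848) or with the probe names as deposited (adjusted p = 0.156), and changed by -0.14 in MKN45. FOXM1 changed by 0.00 and -0.11 and was not called.

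**Figure D3:**
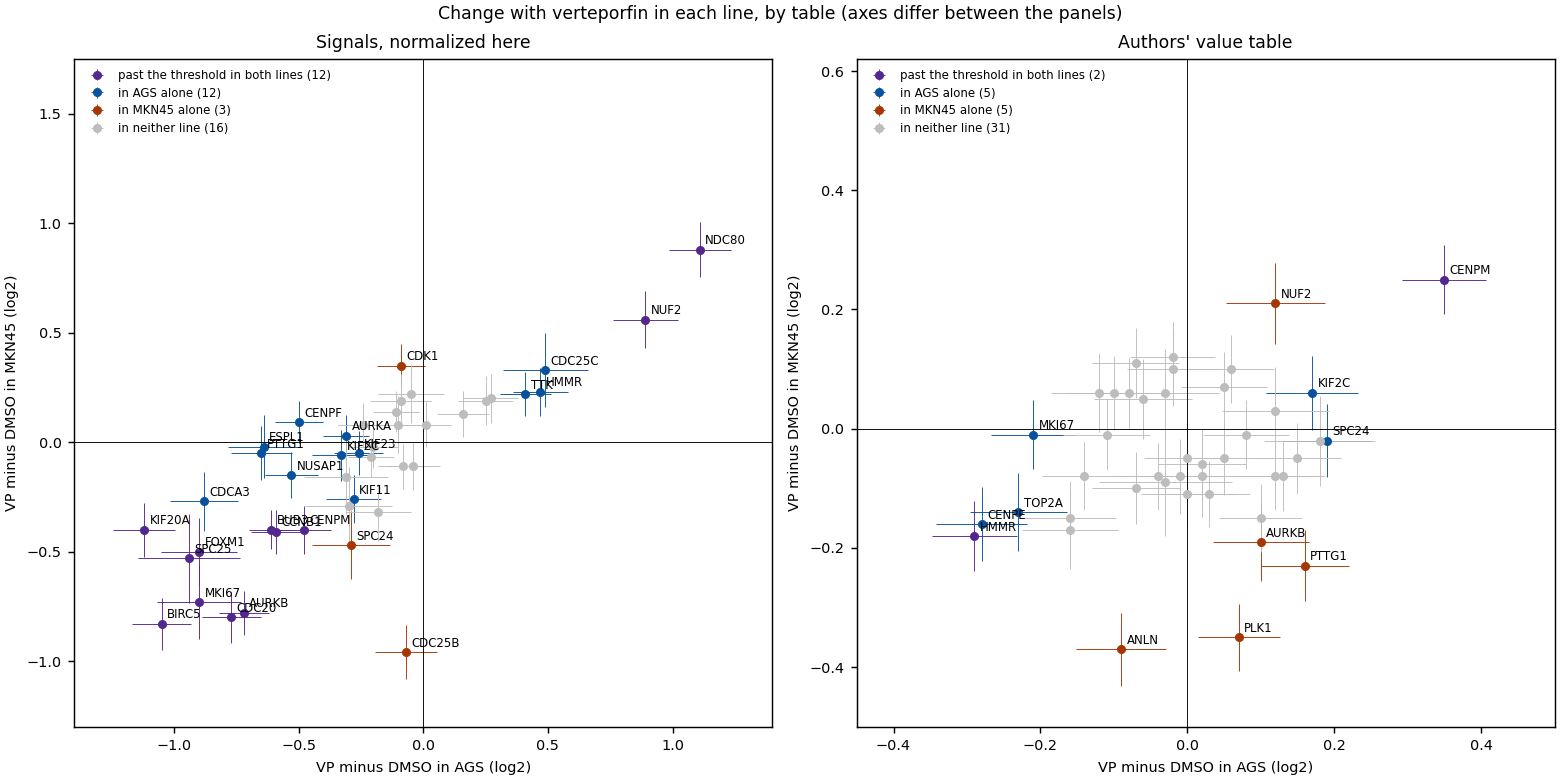
Change of each member with VP (log2, VP minus DMSO) in AGS (horizontal) and MKN45 (vertical), in the signals (left) and the value table (right, narrower axes); bars are SE and colours mark the lines in which a member was called. In the signals 10 members lie low in both lines and NDC80 and NUF2 high in both.

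The difference between the lines was tested itself, as the change in MKN45 minus that in AGS. In the signals 4 of 43 members passed (9.30%, against 11.2% of all genes), of which 3 were higher and 1 lower in MKN45 (5.75% and 5.46% of all genes). CDC25B fell in MKN45 and not in AGS, a difference of -0.89 ± 0.175 (SE, limma, adjusted p = 0.00696). KIF20A (difference 0.71 ± 0.174, adjusted p = 0.0197), CENPF (0.59 ± 0.135, adjusted p = 0.015) and PTTG1 (0.60 ± 0.175, adjusted p = 0.0423) changed more steeply in AGS. With the median shift 0 members passed this test, against 4.41% of all genes. The values deposited by the authors let 5 members pass (11.6%, against 11.7% of all genes), with 0 higher and 5 lower in MKN45 (6.65% and 5.02% of all genes): PLK1 (-0.42 ± 0.0789, adjusted p = 0.000789), PTTG1 (-0.39 ± 0.0845, adjusted p = 0.0033), ANLN (-0.28 ± 0.0867, adjusted p = 0.0367), AURKB (-0.29 ± 0.0928, adjusted p = 0.0429) and PRC1 (-0.25 ± 0.0799, adjusted p = 0.043). PTTG1 was thus called in both tables with opposite signs. The count of 5 fell to 3 without any 1 of AGS DMSO replicate 1 or 2, AGS VP replicate 1 or 2 and MKN45 DMSO replicate 3 (9.04% to 10.8% of all genes). It fell to 2 without AGS DMSO replicate 3, MKN45 DMSO replicate 1 or 2 or MKN45 VP replicate 1 or 3 (8.77% to 9.61%).

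Without the drug, 6 members differed between the lines in the signals (14.0%, against 18.5% of all genes), with 5 higher and 1 lower in MKN45 (8.15% and 10.3% of all genes). With DMSO, CCNB1 stood 0.54 ± 0.0995 higher in MKN45 (limma, adjusted p = 0.00175), ANLN 0.65 ± 0.131 (adjusted p = 0.00342), BIRC5 0.44 ± 0.117 (adjusted p = 0.019), DLGAP5 0.39 ± 0.105 (adjusted p = 0.02) and AURKA 0.29 ± 0.0927 (adjusted p = 0.0435). ESPL1 differed by -0.59 ± 0.143 (adjusted p = 0.0108), lower in MKN45. The other members did not pass the test. Without AGS DMSO replicate 2 or MKN45 DMSO replicate 1, 3 members passed (15.0% and 14.8% of all genes). With the median shift 4 members were higher and 0 lower in MKN45, where 12.2% of all genes were called. The share of higher among all calls was 72.5% in place of 44.2%. AURKA (limma, adjusted p = 0.087) and ESPL1 (adjusted p = 0.121) were no longer called. Only the signals were used here, since the value table may have set each line on a scale of its own.

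**Figure D4:**
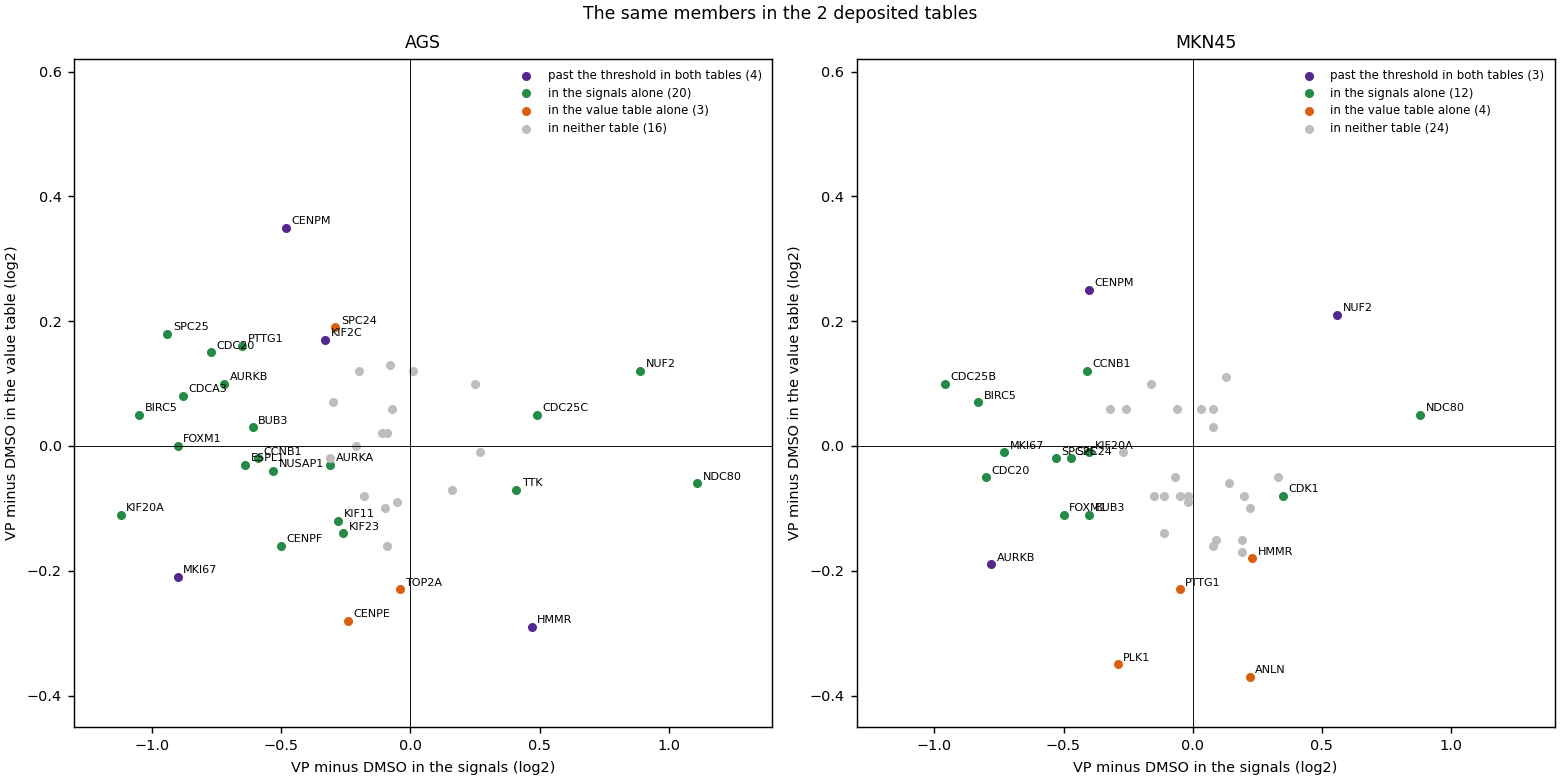
Change of each member with VP in the signals (horizontal) against that in the value table (vertical), both log2, for AGS (left) and MKN45 (right); colours mark the tables in which a member was called. The range of the value table, -0.29 to 0.35 in AGS, was narrower than that of the signals, -1.12 to 1.11, and the points follow no diagonal.

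Other genes of the cell cycle, listed by function, are given as counts from the signals. For this and the following lists, 26.3% of all genes rose and 30.0% fell in AGS. In MKN45 the shares were 22.9% and 23.1%. With the median shift 43.6% of all genes were called in AGS and 40.9% in MKN45, and rises made up 70.3% and 84.9% of those calls. Of 29 further kinetochore and centromere genes, AGS had 5 rises and 11 falls and MKN45 had 4 rises and 4 falls (7 and 3, and 9 and 1, with the median shift). SGO1, the protector of centromeric cohesion, rose by 0.82 in AGS (limma, adjusted p = 3.87e-05), and PMF1, of the MIS12 complex, fell by 1.28 (adjusted p = 1.77e-07). Of 22 further kinesins and spindle genes, AGS had 1 rise and 12 falls and MKN45 had 1 rise and 6 falls (2 and 4, and 6 and 2, with the median shift). GTSE1, a microtubule binding protein, fell by 1.14 in AGS (adjusted p = 7e-07), while CKAP2L, a spindle protein, rose by 0.41 (adjusted p = 0.0152). Of 14 genes listed for the anaphase promoting complex, its subunits and the inhibitor FBXO5, none rose, while 10 fell in AGS and 6 in MKN45 (1 and 4, and 1 and 0, with the median shift), with ANAPC7 at -0.98 and CDC26 at -0.96 in AGS. Of 14 condensin and cohesin genes, AGS had 2 rises and 4 falls and MKN45 had 1 rise and 4 falls (2 and 2, and 2 and 0, with the median shift).

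WEE1, the kinase that holds CDK1 inactive, stood 1.69 higher with VP in AGS (limma, adjusted p = 8.22e-08), and its rise in MKN45 was 1.32 (adjusted p = 1.41e-06), more than any member. It belongs to 20 further regulators of G2 and M phase, with 5 rises and 9 falls in AGS and 5 rises and 7 falls in MKN45 (6 and 8, and 6 and 2, with the median shift). PIMREG, a mitotic partner of clathrin-assembly proteins, fell by 1.07 in AGS (adjusted p = 1.56e-06). Of 37 DNA replication genes, which act before mitosis, 25 fell in AGS and 22 in MKN45 and 2 rose in each line. Their median change was -0.57 in AGS and -0.37 in MKN45, with TYMS, thymidylate synthase, at -1.17 and GINS2, of the replicative helicase, at -1.01 in AGS. With the median shift, 16 of them fell in AGS and 2 in MKN45, with 2 rises in each line.

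A list of 16 genes joined CDK inhibitors and p53 targets with the pocket proteins RB1, RBL1 and RBL2 and with E2F4. In it AGS had 6 rises and 7 falls and MKN45 had 10 rises and 5 falls (7 and 3, and 10 and 2, with the median shift). RB1, RBL1 and RBL2 were among the rises in MKN45, at 0.63, 0.60 and 0.43, and stood at 0.65, 0.46 and -0.04 in AGS. CDKN1C, a further CDK inhibitor, gave the lowest value of the list, at -2.42 in AGS and -1.53 in MKN45. With the median shift it stood at -2.19 and -1.45. CDKN2B, the inhibitor p15 of CDK4 and CDK6, rose by 2.06 in AGS (limma, adjusted p = 1.37e-09), and its rise in MKN45 was 1.28 (adjusted p = 1.91e-07). CDKN1A, which encodes p21, was called lower in the signals, at -0.33 for AGS (adjusted p = 0.0158) and -0.52 for MKN45 (adjusted p = 0.00109), and higher in the value table, at 0.52 (adjusted p = 6.82e-06) and 0.27 (adjusted p = 0.0116). In that table WEE1 changed by -0.09 and 0.05 and CDKN2B by 0.06 and 0.16. Its counts for the 37 replication genes were 5 rises and 0 falls in AGS and 1 rise and 3 falls in MKN45, and for the 14 genes of the anaphase promoting complex 2 rises and 0 falls in each line. With the median shift CDKN1A stood at -0.40 and -0.35, no longer called in either line.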

How the data were processed

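RNA from 4 groups was hybridized to 12 HumanHT-12 V4 arrays of Illumina, 3 a group. The authors exported bead intensity with GenomeStudio (version not given in the sources used here) and deposited it with a detection p-value for each probe and array. Their value table holds log2 values that the authors quantile normalized with limma, and the lines may have been normalized apart. In it 1 line of linear signals was left out, and 26126 probe names were moved by 1 line. The submitters name the probes through the platform annotation, in which 30113 probes had 1 gene symbol, 8 several and 17202 none.

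The signals were background corrected and quantile normalized with neqc of limma 3.58.1 in R 4.3.3 (offset 16). Of 47323 probes, 16021 were detected (p under 0.01) on every array of at least 1 group, and each gene was read by its brightest such probe, which left 9696 genes. Group means were fitted over 12 arrays, with Benjamini-Hochberg adjustment over all genes and a threshold of 0.05. A bound on a fold sets the mean of the bright group against, on each array of the dim group, the lowest level among detected probes, or the dim probe's level where that is higher. Alternatives changed the scaling, background model, filter, probe, arrays, block, test, threshold and table. The fit was tested on simulated data. No pair of arrays held identical values, and 0 value columns were left unused.

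Values on every array are given for 11 genes of core roles and, for each line and table, for the 3 called members with the largest rise and the 3 with the largest fall. Of each other gene list at most 2 genes with the smallest p in each direction in AGS are named, and CDKN1A in all cases. RB1, RBL1 and RBL2 are named besides. The members and lists were chosen with earlier results of these data known.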

Additional observations from a re-analysis of the deposited data

Results flagged for a closer look

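The change with VP differed between the lines, by the limma test of that difference (MKN45 change minus AGS change, adjusted over all genes), for 4 members in the signals, and for 5 in the value table of the authors. In the signals the difference was -0.89 for CDC25B (-0.07 in AGS and -0.96 in MKN45, adjusted p = 0.00696), 0.71 for KIF20A (-1.12 and -0.40, adjusted p = 0.0197), 0.60 for PTTG1 (-0.65 and -0.05, adjusted p = 0.0423) and 0.59 for CENPF (-0.50 and 0.09, adjusted p = 0.015). With the median shift none of these 4 passed.

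In the value table it was -0.42 for PLK1 (0.07 in AGS and -0.35 in MKN45, limma, adjusted p = 0.000789), -0.39 for PTTG1 (0.16 and -0.23, adjusted p = 0.0033) and -0.29 for AURKB (0.10 and -0.19, adjusted p = 0.0429). It was -0.28 for ANLN (-0.09 and -0.37, adjusted p = 0.0367) and -0.25 for PRC1 (0.10 and -0.15, adjusted p = 0.043). The sign for PTTG1 was opposite in the 2 tables, and the cause was not tested.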

How the results depend on the processing

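Of the calls in the signals, 14 of 24 in AGS and 7 of 15 in MKN45 kept direction and threshold under all 12 settings that changed scaling, background, filter, probe, arrays or block, or left out 1 array. In the value table the calls that did so, under 9 such settings, were 4 of 7 and 3 of 7. Other tests, names as deposited and the other table are not among these. For the signals' calls the value table gave 7 members in AGS and 7 in MKN45 with names moved (30.2% and 21.7% of all genes), and 5 and 7 with names as deposited (24.1% and 17.5%). In AGS the direction turned, with names moved, for AURKB (0.10), BIRC5 (0.05), BUB3 (0.03), TTK (-0.07), CENPM (0.35), NDC80 (-0.06), SPC25 (0.18), KIF2C (0.17), HMMR (-0.29), CDC20 (0.15), PTTG1 (0.16) and CDCA3 (0.08). With names as deposited it turned for the same genes at the same values except TTK (-0.15), SPC25 (0.10) and NDC80, which did not turn, and also for NUSAP1 (0.01) and MKI67 (0.13). In MKN45 it turned under either naming for CCNB1 (0.12), CDK1 (-0.08), CDC25B (0.10), BIRC5 (0.07) and CENPM (0.25), and with names as deposited for NDC80 (-0.29), NUF2 (-0.09), SPC25 (0.003) and MKI67 (0.17). Of the value table's own calls, names as deposited turned MKI67 in AGS (0.13) and PLK1 (0.06) and NUF2 (-0.09) in MKN45. The cause was not tested.

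The random variance test that the methods name, after Benjamini-Hochberg, called 22 members in AGS and 15 in MKN45 from the signals, and 6 and 9 from the value table. Of all genes it called 54.4% and 45.3% from the signals, and 27.1% and 23.1% from the value table. A plain equal-variance t-test called 24 members in AGS and 9 in MKN45 in the signals (43.8% and 32.2% of all genes). From the values of the authors it called 2 (AGS) and 3 (MKN45), against 12.7% and 10.1% of all genes. Unadjusted p under 0.001 called 18 in AGS and 8 in MKN45 in the signals (34.6% and 25.6% of all genes). From the authors' values it called 3 and 4 (17.2% and 12.7%). Members whose change differed between the lines numbered 0 with the median shift and 7 without the background model in the signals, and 3 with no filter in the value table. The shares of all genes were 4.41%, 14.6% and 5.56%. Leaving out 1 array at a time gave 21 to 26 calls in AGS and 11 to 17 in MKN45 from the signals, and 6 to 12 and 3 to 8 from the value table. The shares of all genes were 50.3% to 57.6% and 36.8% to 46.6% in the signals, and 24.1% to 30.5% and 16.6% to 22.8% in the value table. For the difference between the lines it gave 3 to 6 from the signals and 2 to 4 from the value table, and for DMSO alone 3 to 6. The shares of all genes there were 7.02% to 11.3%, 8.77% to 13.4% and 14.4% to 18.7%.

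Replicate numbers did not pair the arrays: deviations of same-numbered arrays correlated at -0.0959 to 0.210 (signals) and -0.0461 to 0.123 (value table). With the replicate number as a block, 22 members in AGS and 14 in MKN45 were called in the signals. From the authors' values 9 and 8 were called. For the difference between the lines, 5 passed from the signals and 4 from the authors' values. For DMSO alone the block moved the estimate itself, with a median difference of the members of 0.07 in place of 0.13. The medians of the VP changes did not move. The 2 members called for DMSO alone thus answer another question and cannot show whether pairing matters there. Levels near background limit what can be said of MKI67, and 3 arrays a group limit the precision.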
